A study of Mus musculus with 18 samples.

Results

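The interferon response genes *Irf1*, *Irf7*, *Stat2*, *Ifit1*, *Ifit2*, *Ifit3*, *Isg15*, *Usp18* and *Rsad2* were followed through perinatal mouse lung. A gene entered when a probe set of the array carried its symbol and no other. By this rule 8 of the 9 genes were measured, by 9 of 35556 probe sets, because *Irf1* has a second probe set. *Isg15* shares its probe set with another gene symbol, so no value is given for it. Expression was read from 18 arrays, each of 1 whole lung, in 6 groups of 3. In the *Scap* line, *Scap* flox/flox mice carried *SP-C-rtTA*, which drives the transactivator in respiratory epithelium, and a tetO-driven *Cre*. Dams of both lines ate doxycycline chow in midgestation, controls included, so that *Scap* was deleted (*Scap* Δ/Δ) only in epithelial descendants of cells exposed then, and deletion was incomplete. *Scap* Δ/Δ lungs (arrays KO10, KO11 and KO12) and lungs of flox littermates without *rtTA* or *Cre* (C7, C8 and C9) were taken at E18.5, and again at PN1, the day of birth (KO16, KO17 and KO18 against C13, C14 and C15). In the *Insig* line, *Insig1* flox/flox was deleted in the same way on an *Insig2*-/- background (*Insig1/2* Δ/Δ; KO22, KO23 and KO24) at E17.5, and the control littermates (C19, C20 and C21) lack *Insig2* as well. The *Scap* colony was of mixed strain. SCAP carries the SREBP lipid factors toward activation and the INSIG proteins retain it, and the arrays were made to compare lungs with lowered and raised SREBP signalling against littermates.

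Interferons are secreted signals of antiviral defence. Type I interferons bind a receptor of IFNAR1 and IFNAR2, whose kinases JAK1 and TYK2 phosphorylate STAT2. STAT2 acts with IRF9 in a complex that binds the interferon-stimulated response element (ISRE) of target genes, whereas the response to interferon-gamma runs through the gamma-activated site (GAS). IRF1 and IRF7 are themselves induced transcription factors, and IRF7 drives further interferon production. The IFIT proteins recognise foreign RNA, viperin (the product of *Rsad2*) makes a chain-terminating nucleotide, ISG15 is a ubiquitin-like tag, and USP18 removes that tag and dampens the type I receptor. Macrophages and other leukocytes of the lung respond strongly to interferon, as do epithelial cells. In RNA of whole lung, fewer cells of a type and less RNA per cell cannot be told apart.

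The response elements of 5 members are shown because these genes differ in which element stands before them. The windows were read from RefSeq on GRCm38.p6, 5′ to 3′ on the strand of the gene and upstream of the annotated start, and 8 of the 9 members have a promoter entry (no entry for *Usp18*). Capitals mark matches to GAAANNGAAA or its reverse complement TTTCNNTTTC, the ISRE core, and in *Irf1* a match to TTCNNNGAA, the GAS letters, which read the same on both strands.
*Ifit3*, chr19:34583358-34583431, plus strand: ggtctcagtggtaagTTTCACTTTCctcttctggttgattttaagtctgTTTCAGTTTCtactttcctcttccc
*Ifit1*, chr19:34640770-34640828, plus strand: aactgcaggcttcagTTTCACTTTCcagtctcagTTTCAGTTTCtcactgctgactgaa
*Rsad2*, chr12:26456548-26456587, minus strand: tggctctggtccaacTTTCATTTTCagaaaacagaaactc
*Stat2*, chr10:128270261-128270300, plus strand: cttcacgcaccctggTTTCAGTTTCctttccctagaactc
*Irf1*, chr11:53769909-53769947, plus strand: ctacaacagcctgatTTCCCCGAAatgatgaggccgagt

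*Ifit3* and *Ifit1* each hold 2 ISRE matches, and the first bases of the matches lie 156 and 122 bases before the start in *Ifit3* and 104 and 85 bases before it in *Ifit1*. Of the 8 members with an entry, 5 hold the ISRE letters (*Isg15*, *Stat2*, *Rsad2*, *Ifit3* and *Ifit1*), against 3.44% of all 32851 promoter windows of 300 bases. The GAS letters stand in 2 members, *Irf1* and *Ifit2*, and in 8.3% of all windows. A match is a description of letters and was not tested as a binding site.

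The *Scap* Δ/Δ lungs at PN1 were not alike, and this touches every result at that age. KO17 and KO18 had a correlation of 0.9944 with one another over all probe sets, but of only 0.9312 to 0.9599 with the remaining 16 arrays, whose own correlations were 0.9729 to 0.9975. Their values were also compressed, with an SD over probe sets of 2.08 against 2.23 to 2.30 on the other arrays. At levels between 9 and 10 on the log2 scale the median probe set differed from the PN1 control mean by -0.28 in KO17 and -0.26 in KO18, and between 5 and 6 by 0.23 and 0.26. In KO16 these shifts were between -0.06 and 0.04 at every level. Results are therefore also given without KO17 and KO18, where the *Scap* Δ/Δ group of PN1 is KO16 alone (n = 1) and is assumed to vary like the other groups, so that a call kept or lost there is a value of 1 lung and no replicated test. The targeted gene checked the labels: at both ages the *Scap* values of deleted and control lungs were apart, with differences of -0.41 (standard error 0.09) at E18.5 and -0.29 (standard error 0.09) at PN1, and in *Insig1/2* Δ/Δ lungs *Insig1* differed by -1.22 (standard error 0.20), also without overlap. None of the 3 passed in limma (adjusted p = 0.511, 0.0914 and 0.758). *Insig2* read 8.75 to 9.09 on the 6 *Insig* arrays and 9.53 to 10.49 on the *Scap* arrays.

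**Figure D1:**
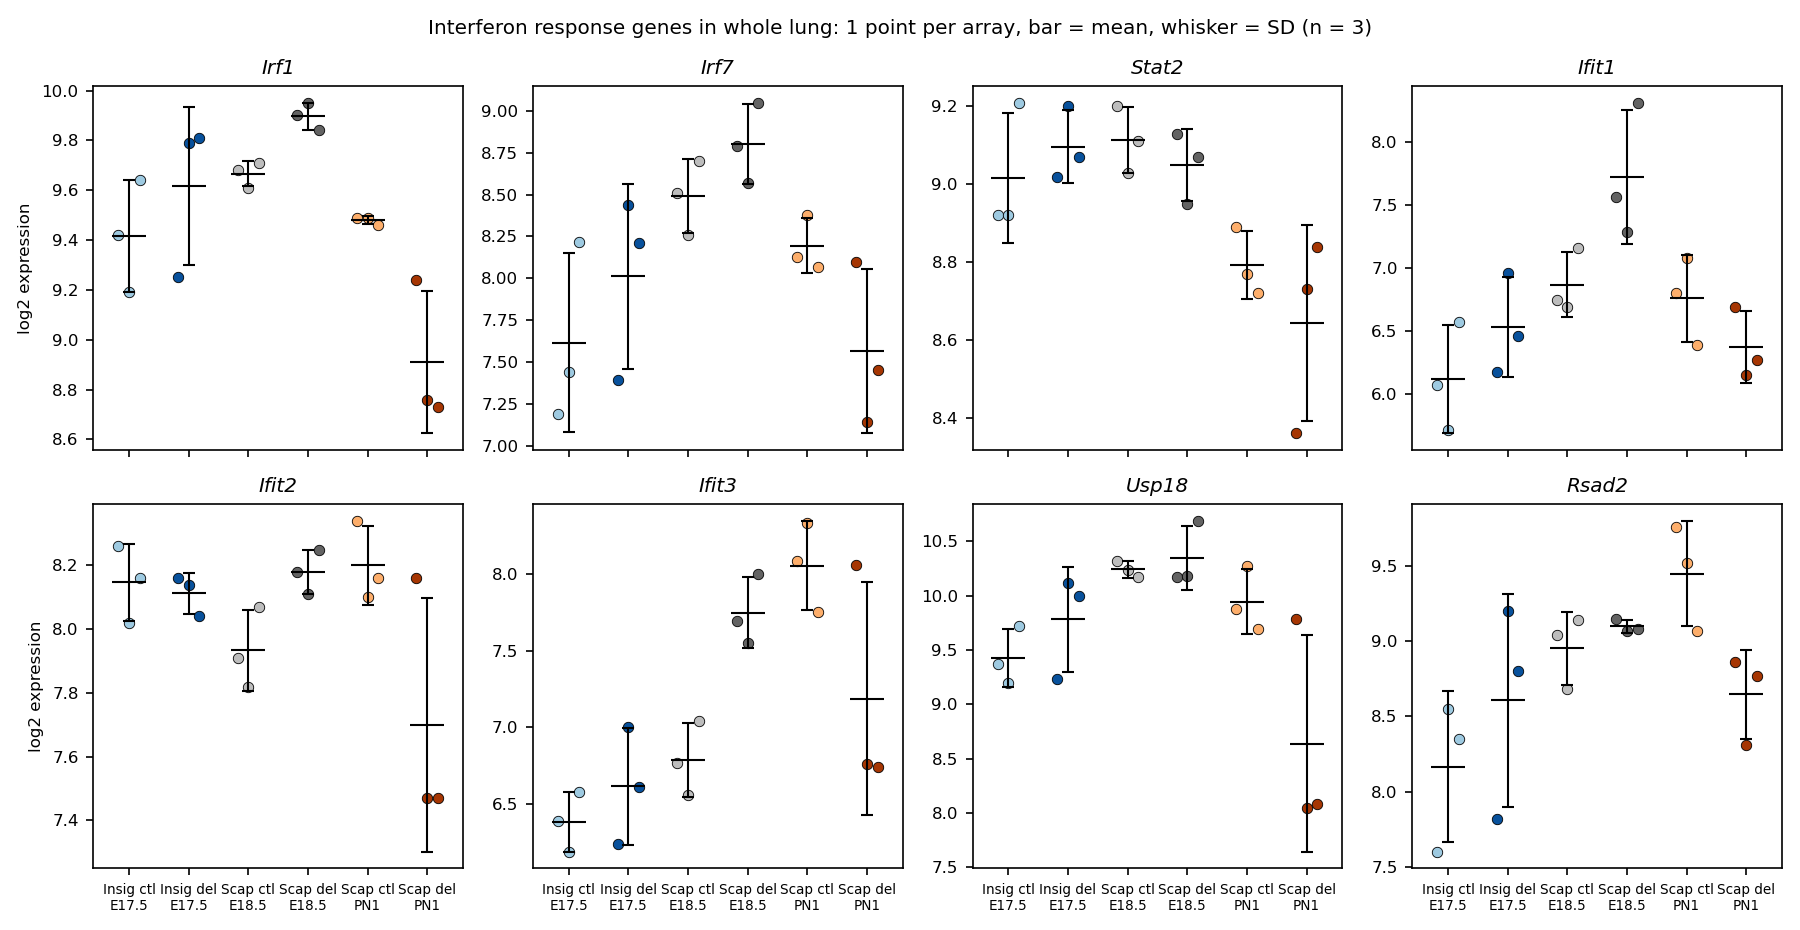
Log2 expression of the 8 measured members on 18 arrays (1 point per array; bar, mean; whisker, SD; n = 3 per group). At E18.5 *Ifit1* and *Ifit3* of the *Scap* Δ/Δ lungs lie above their controls, and at PN1 1 of 3 *Scap* Δ/Δ points stays near the controls for *Usp18* and *Ifit3* while the others lie lower.

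At E18.5 the question is which interferon genes differ when *Scap* is missing from lung epithelium just before birth. *Ifit3* read 7.69, 7.55 and 8.0 in *Scap* Δ/Δ lungs and 6.77, 6.56 and 7.04 in controls. *Ifit1*, its neighbour in the same gene cluster, read 7.56, 7.28 and 8.31 against 6.74, 6.69 and 7.16. In both genes every *Scap* Δ/Δ array lay above every control array, and KO12 was the highest array of all 18 for *Ifit1*. The difference was 0.96 on the log2 scale (1.94-fold, standard error 0.32) for *Ifit3* and 0.86 (1.81-fold, standard error 0.27) for *Ifit1*. Neither passed the test over all probe sets (limma, adjusted p = 0.511 for both). *Ifit3* has a near-identical neighbour, *Ifit3b*, with a probe set of its own, so a share of its signal may be common to the 2 genes.

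*Irf1*, the factor with the GAS letters, read 9.90, 9.95 and 9.84 against 9.68, 9.61 and 9.71, again without overlap but only 0.23 apart (standard error 0.12; adjusted p = 0.568 from limma). The second *Irf1* probe set overlapped, with a difference of -0.02. *Ifit2* read 8.18, 8.11 and 8.25 against 7.91, 7.82 and 8.07, a difference of 0.25 (standard error 0.17). *Irf7* overlapped, with 8.79, 8.57 and 9.05 against 8.51, 8.26 and 8.70. *Rsad2*, *Usp18* and *Stat2* differed by 0.15, 0.11 and -0.06, less than their spread. Thus 7 of 8 members lay above 0, with a median of 0.24 against -0.03 over all probe sets. Of the 8 tested members limma called 0, against 0.00877% of the 22800 probe sets tested. An unadjusted p under 0.05 was found for 2 members, *Ifit1* and *Ifit3*, and for 2107 of the 22800 probe sets. Without moderation of the variances 0 members were called, and with array weights 2, when 11.2% of all probe sets were called too. Arrays did not overlap in 4 members, all higher, where 14.5% of probe sets tested were higher without overlap and 21% lower. The exact permutation test of 3 lungs against 3 cannot give a two-sided p below 0.1, which these 4 reached. The standard error of this fit also holds the spread between PN1 lungs. Without KO17 and KO18 the adjusted p of *Ifit3* was 0.0676 and that of *Ifit1* was 0.104, and without KO16 that of *Ifit3* was 0.0434.

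Macrophage and monocyte markers were mostly higher as well, while markers of other leukocytes were mixed. Above 0 were 7 of 8 T and NK cell, 1 of 3 B cell and 1 of 4 plasmacytoid dendritic cell markers. The mean of 10 macrophage and monocyte markers was 9.39 to 9.51 in *Scap* Δ/Δ lungs and 9.15 to 9.30 in controls, 8 of the 10 were higher, and the monocyte receptor *Ccr2* read 10.01, 10.29 and 10.09 against 9.52, 9.30 and 9.50. The neutrophil gene *S100a8* read 8.67, 9.63 and 9.74 against 8.27, 8.09 and 8.22, while 4 of 7 neutrophil markers were higher and the ranges of their mean overlapped (7.86 to 8.26 against 7.62 to 7.92). The mean of 10 lung epithelial markers was at most 11.58 against at least 11.64, and 7 of the 10 were lower. None of these markers passed the test. Their part in the difference of the interferon genes was not tested.

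At PN1 the same deletion was compared in newborn lung. *Usp18*, which restrains the type I receptor, read 9.79, 8.05 and 8.08 in KO16, KO17 and KO18 against 9.88, 10.27 and 9.69 in controls. *Ifit3* read 8.06, 6.76 and 6.74 against 8.08, 8.33 and 7.75. In both genes KO16 lay within the range of the controls and the other *Scap* Δ/Δ arrays lay below it, so that the group means differed by -1.30 (standard error 0.39) for *Usp18* and -0.86 (standard error 0.32) for *Ifit3*. These missed the threshold (limma, adjusted p = 0.0914 and 0.110).

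*Irf1* read 9.24, 8.76 and 8.73 against 9.49, 9.49 and 9.46, and *Rsad2* read 8.86, 8.31 and 8.77 against 9.76, 9.52 and 9.07. These were the 2 members without overlap, both lower, with differences of -0.57 (standard error 0.12) and -0.81 (standard error 0.19) and adjusted p of 0.0893 and 0.0897 from limma. The second *Irf1* probe set, at 7.43, 7.93 and 7.86 against 7.46, 7.37 and 7.57, differed by 0.27 the other way, so the 2 probe sets of this gene disagree at PN1. *Irf7* at -0.63, *Ifit2* at -0.50, *Ifit1* at -0.39 and *Stat2* at -0.15 overlapped. *Stat2* was the 1 member with its lowest value in KO16, 8.36 against 8.73 and 8.84.

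All 8 measured members were below 0 at PN1, with a median of -0.60 against 0.03 over all probe sets and -0.06 over those tested. limma called 0 of 8, against 0.00877% of probe sets tested, while 6 members (all but *Stat2* and *Ifit1*) had an unadjusted p under 0.05, as had 7363 of the 22800 probe sets. Without moderation 0 were called as well, and with array weights 7, when 68.1% of all probe sets were called too. Without overlap and lower were 11% of the probe sets tested, and 5.59% were higher. The values rest on the unlike *Scap* Δ/Δ arrays. Without KO16, 6 members were called, when 61.9% of all probe sets tested were called too. Without KO17 and KO18 the median of the members was -0.13, 0 were called, and *Usp18* differed by -0.16 and *Ifit3* by 0.01.

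**Figure D2:**
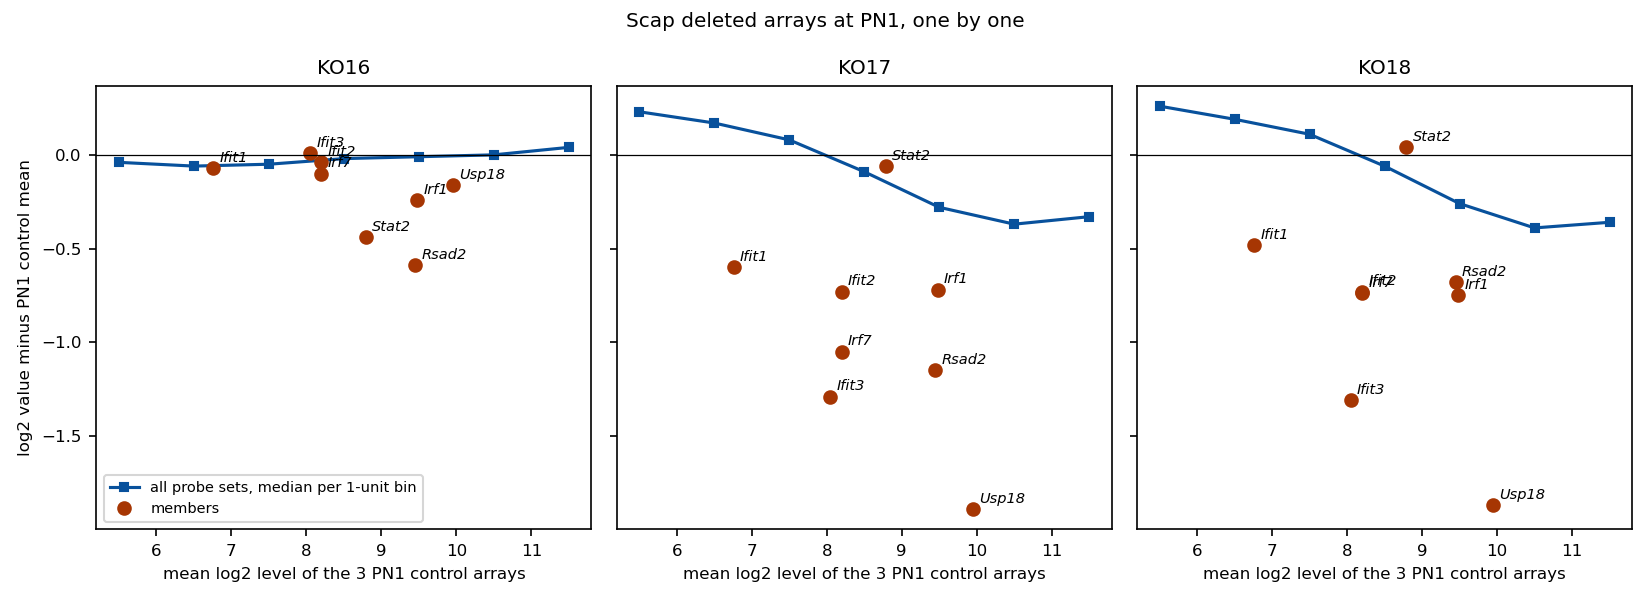
Each *Scap* Δ/Δ array at PN1 minus the mean of the 3 PN1 controls (log2, vertical) against that control mean (log2, horizontal); circles, members; squares, median of all probe sets in bins of 1 log2 unit. In KO17 and KO18 *Usp18* lies at -1.89 and -1.87, where the median probe set of its level lies at -0.28 and -0.26.

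Most members stood lower in KO17 and KO18 than the median probe set of their level. The spread of single probe sets around that median was not measured. *Usp18* stood at -1.89 in KO17 and -1.87 in KO18 relative to the control mean. *Ifit3*, at a control level of 8.05, stood at -1.29 and -1.31, where the median probe set between 8 and 9 stood at -0.09 and -0.06. *Ifit1* stood at -0.60 and -0.48 at a level of 6.76, where the median probe set stood at 0.17 and 0.19. *Stat2* differed by -0.06 and 0.04, close to the median of its level. In KO16 the members ranged from -0.59 (*Rsad2*) to 0.01 (*Ifit3*). The mean of the 10 macrophage and monocyte markers stood at 9.41 for KO16, 8.69 for KO17 and 8.68 for KO18, with controls at 9.30 to 9.39, and *Ccr2* read 9.29, 7.85 and 7.59 against 8.84, 9.16 and 9.03. The neutrophil mean was 9.27, 8.91 and 8.58 against 8.89 to 9.16. The part of these cells and of the compressed arrays in the lower interferon genes was not tested.

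Whether the effect of *Scap* deletion differed between the ages was tested as an interaction. All 8 members lay below 0, from -0.09 for *Stat2* to -1.82 (standard error 0.45) for *Ifit3*. Their median was -0.95 against 0.06 over all probe sets and -0.03 over those tested. *Usp18* was at -1.41 (standard error 0.55) and *Ifit1* at -1.24 (standard error 0.38). *Irf1* was at -0.80 by its first probe set and at 0.29 by its second. None was called (limma, adjusted p = 0.265 for the 7 members other than *Stat2*), as was 0.0% of the probe sets tested. These 7 members had an unadjusted p under 0.05, as had 4181 of the 22800 probe sets. Without moderation 0 members were called, and with array weights 7, when 64.4% of all probe sets were called too. The median was -0.44 without KO17 and KO18, and 7 members were called without KO16, when 58.4% of probe sets were called.

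**Figure D3:**
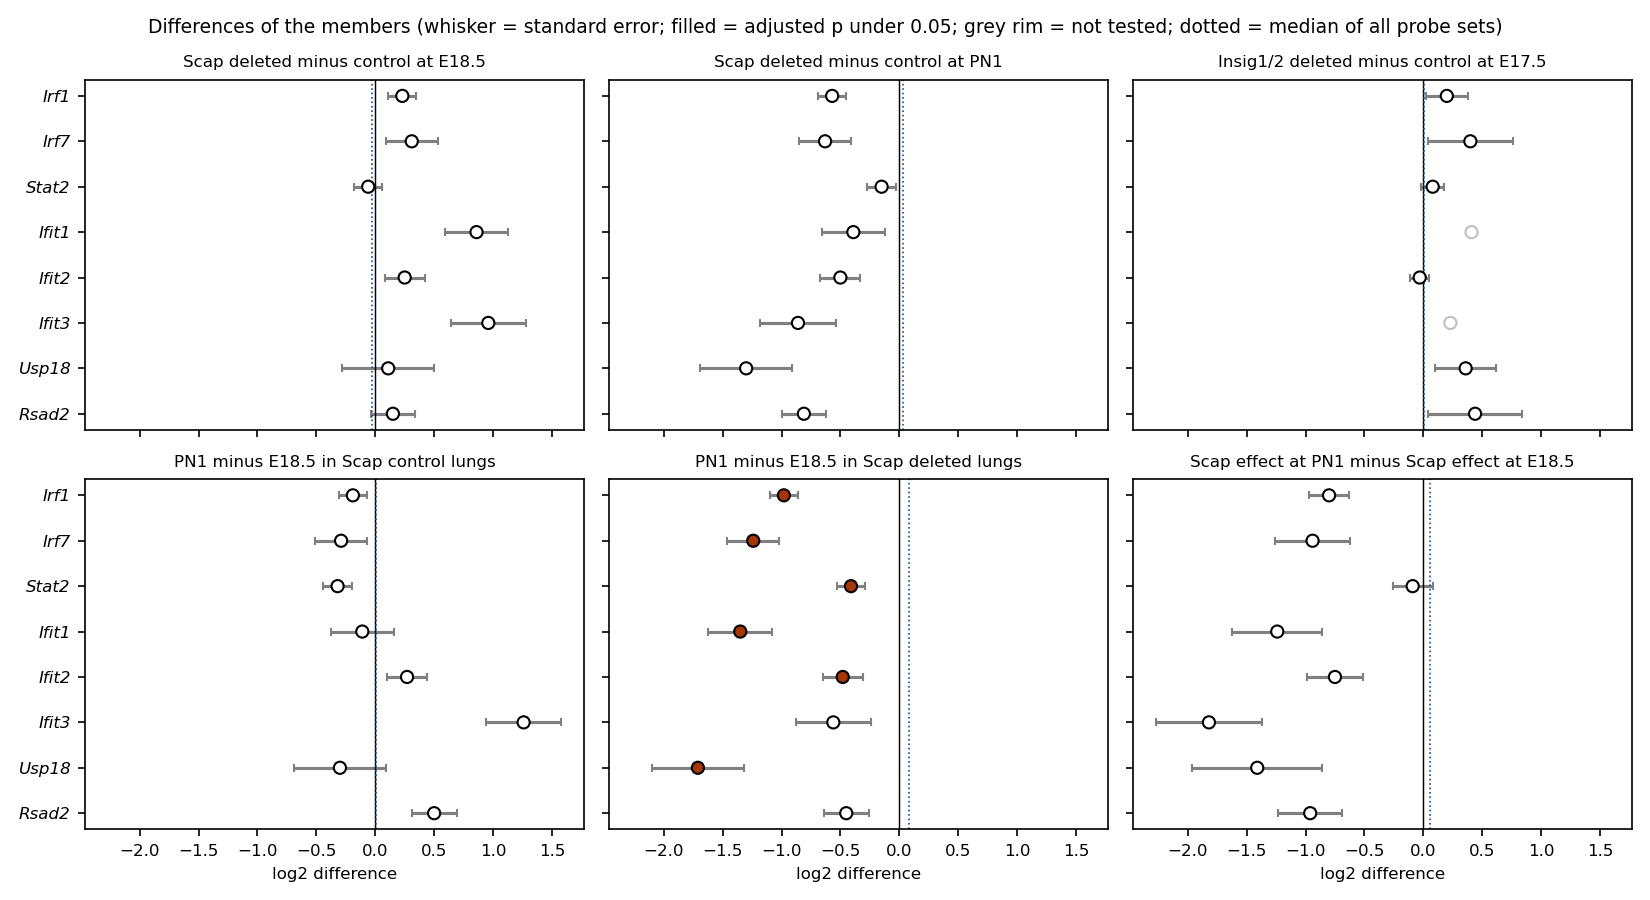
Log2 differences of the 8 members in 6 comparisons (horizontal; whisker, standard error from limma; filled, adjusted p under 0.05; grey rim, below the expression filter and not tested; dotted line, median of all probe sets). Filled points appear only for PN1 minus E18.5 in *Scap* Δ/Δ lungs, where all 8 members lie below 0 and 6 are filled.

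From E18.5 to PN1 control lungs pass through birth. In these controls *Ifit3* read 8.08, 8.33 and 7.75 at PN1 and 6.77, 6.56 and 7.04 at E18.5, with no overlap and a difference of 1.26 (2.40-fold, standard error 0.32; adjusted p = 0.0683 from limma). *Ifit1* next to it did not share this, with 6.80, 7.08 and 6.39 at PN1 against 6.74, 6.69 and 7.16. *Ifit2* was 0.27 higher without overlap, and *Rsad2* was 0.50 higher with overlap. *Irf1* (-0.19) and *Stat2* (-0.32) were lower without overlap. The median of the members was -0.15 against 0.01 over all probe sets, and 3 of 8 lay above 0.

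limma called 0 members from E18.5 to PN1 in controls, where 1.19% of probe sets tested were called higher and 1.39% lower. *Ifit3*, *Stat2* and *Rsad2* had an unadjusted p under 0.05, as had 3068 of the 22800 probe sets. Without moderation 0 members were called as well. Arrays did not overlap for 2 members higher and 2 lower, against 17.6% and 16.5% of probe sets. The fit of the 12 *Scap* arrays carries the spread of the PN1 *Scap* Δ/Δ lungs here too. Fitted on the 6 control arrays alone, *Ifit3* rose (adjusted p = 0.0055 from limma) and *Stat2* fell (adjusted p = 0.0319), and the same 2 genes were called without KO17 and KO18 (adjusted p = 0.00248 and 0.0249). Without KO16 they were called as well (adjusted p = 0.000901 and 0.0189), with *Irf1* (adjusted p = 0.0453). These fits called 11.1%, 11% and 12% of all probe sets. Neutrophil markers were higher at PN1 in these controls, 4 of 7 called, with a mean of 8.89 to 9.16 against 7.62 to 7.92; their part was not tested.

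From E18.5 to PN1 in *Scap* Δ/Δ lungs, 6 of 8 members fell and 0 rose, where 20.1% of the probe sets tested fell and 17.5% rose (4586 and 3995; 6655 and 1994 after median centring). *Usp18* read 9.79, 8.05 and 8.08 at PN1 and 10.17, 10.18 and 10.69 at E18.5, a fall to 30.6% of its level (-1.71, standard error 0.39; adjusted p = 0.0139 from limma). *Ifit1* fell by 1.35 (standard error 0.27; adjusted p = 0.009), from 7.56, 7.28 and 8.31 to 6.69, 6.15 and 6.27. *Irf7* fell by 1.24 (standard error 0.22; adjusted p = 0.00613) and *Irf1* by 0.98 (standard error 0.12; adjusted p = 0.00156). The second *Irf1* probe set overlapped and differed by 0.16 the other way (adjusted p = 0.304 from limma). *Ifit2* fell by 0.48 (adjusted p = 0.0452) and *Stat2* by 0.41 (adjusted p = 0.0284). *Ifit3* at -0.56 and *Rsad2* at -0.45 did not pass (adjusted p = 0.167 and 0.0809). With KO16 as the only PN1 array (n = 1) *Ifit3* was at 0.31, the other way, and *Rsad2* at -0.24.

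In *Irf1*, *Irf7*, *Stat2*, *Ifit1*, *Usp18* and *Rsad2* every PN1 array lay below every E18.5 array, KO16 included, against 17.3% of probe sets lower without overlap and 16.7% higher. The median of the members was -0.77 against 0.08 over all probe sets and -0.03 over those tested. With KO16 as the only PN1 array (n = 1) it was -0.61, *Irf1* (-0.65, adjusted p = 0.00353 from limma) and *Stat2* (-0.69, adjusted p = 0.00899) passed, when 6.2% of all probe sets did, and *Irf7* (-0.70, adjusted p = 0.0825), *Ifit1* (-1.03, adjusted p = 0.143), *Usp18* (-0.56, adjusted p = 0.205) and *Ifit2* (-0.02, adjusted p = 0.949) did not. On the 6 arrays of this comparison alone 0 members were called, with *Irf1* nearest (adjusted p = 0.063). Leaving out single arrays of this fit also ended calls: *Stat2* without KO10, KO11, KO12 or KO17 (adjusted p = 0.0602 to 0.0789 in limma), *Usp18* without KO12, KO17 or KO18 (adjusted p = 0.0530 to 0.0611) and *Ifit2* without any array but KO16 (adjusted p = 0.0552 to 0.170). Calls over all probe sets fell too, from 37.6% to 25.3% without KO10, 9.05% without KO11, 10.5% without KO12, 7.56% without KO17 and 8.61% without KO18. Without KO16 all 8 members were called, when 72.1% of all probe sets were called too. *Ccr2* fell by 1.89 over the same interval, and 4 of 10 macrophage and monocyte markers fell while 1 rose. *Ccr2* alone of the 10 passed with KO16 as the only PN1 array, at -0.84. Their part was not tested.

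At E17.5 the *Insig* line was compared. *Rsad2* read 7.82, 9.20 and 8.80 in KO22, KO23 and KO24 and 7.60, 8.55 and 8.35 in C19, C20 and C21. *Irf7* read 7.39, 8.44 and 8.21 against 7.19, 7.44 and 8.22, and *Usp18* 9.23, 10.12 and 10 against 9.37, 9.20 and 9.72. In each gene KO22 lay among the controls and KO23 was the highest of the 6 arrays. The differences were 0.44 (standard error 0.40), 0.40 (standard error 0.36) and 0.36 (standard error 0.26), and every member overlapped.

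In *Insig1/2* Δ/Δ lungs 7 of 8 members lay above 0, with a median of 0.29 against 0.01 over all probe sets. *Ifit1* and *Ifit3* were below the expression filter in this line and were not tested. limma called 0 of the 6 tested, against 0.0% of 22775 probe sets, and 0 had an unadjusted p under 0.05. Without moderation 0 were called, and with array weights 5, when 36.7% of all probe sets were called too. Without overlap were 5.83% of probe sets higher and 4.22% lower, and 0 members. Over all probe sets the correlation of C21, KO23 and KO24 among themselves was 0.9932 to 0.9955 and that of C19, C20 and KO22 was 0.996 to 0.9967, whereas between those sets it was 0.984 to 0.9914, across the genotypes. For *Irf1*, *Irf7*, *Stat2*, *Ifit1*, *Ifit3* and *Usp18*, 6 of 8 members, values were also higher in C21, KO23 and KO24 than in the other 3 arrays. These sets of arrays were taken from the same data, and the share of all probe sets that they keep apart was not counted. The values are therefore descriptions and no trait of the members. The mean of the macrophage and monocyte markers read 8.84, 9.04 and 8.98 in C21, KO23 and KO24 and 8.64, 8.74 and 8.68 in C19, C20 and KO22. What these arrays share is not given in the sources used here.

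**Figure D4:**
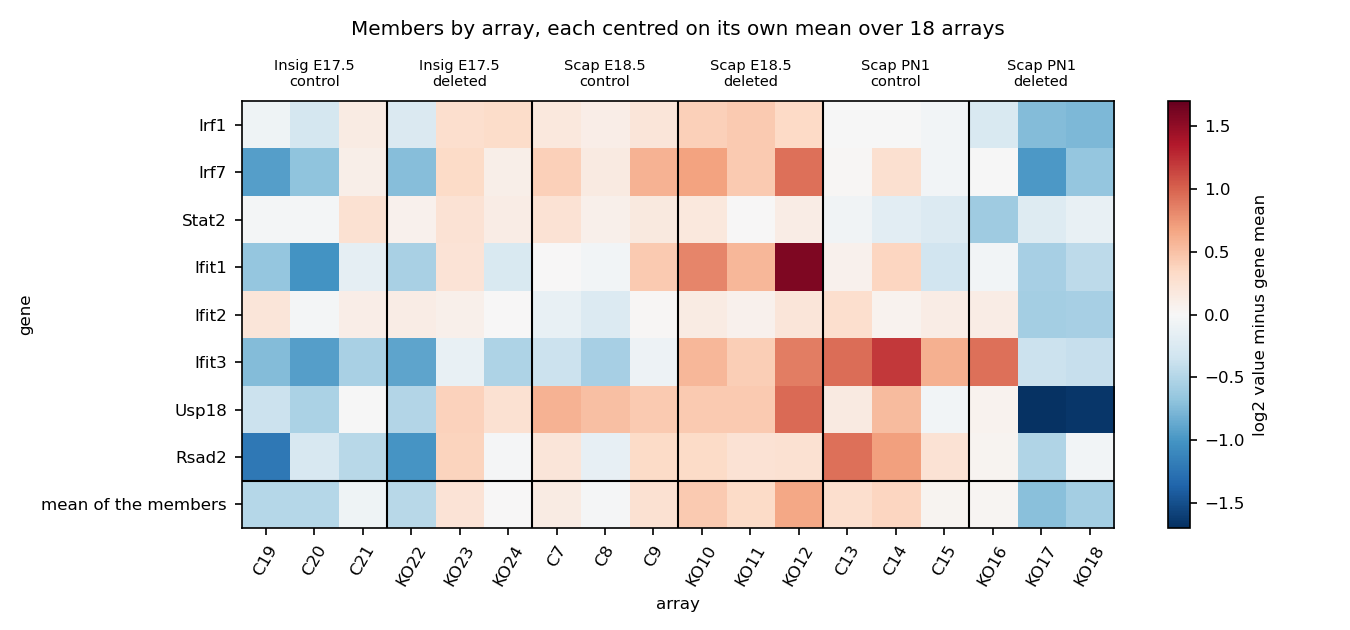
Log2 value of each member minus its own mean over 18 arrays (colour), by array (columns, 3 per group) and gene (rows), with the mean of the members in the last row. The last row is highest in KO12 at 0.66 and lowest in KO17 at -0.71.

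Across all 6 groups no member kept its groups apart throughout. *Irf1*, *Irf7*, *Ifit1* and *Usp18* had their highest mean in the *Scap* Δ/Δ group of E18.5, at 9.90 ± 0.05, 8.80 ± 0.24, 7.72 ± 0.53 and 10.35 ± 0.30 (SD, n = 3). *Ifit2*, *Ifit3* and *Rsad2* had it in PN1 controls (8.20 ± 0.12, 8.05 ± 0.29 and 9.45 ± 0.35, SD, n = 3). *Stat2* had it in E18.5 controls (9.12 ± 0.08, SD, n = 3). The lowest mean was in *Scap* Δ/Δ lungs at PN1 for *Irf1*, *Irf7*, *Stat2*, *Ifit2* and *Usp18*, and in *Insig* controls for *Ifit1*, *Ifit3* and *Rsad2*. Along the order of the 6 means, neighbours overlapped in all but 3 places: *Irf1* and *Ifit1* between *Scap* Δ/Δ and control at E18.5, and *Stat2* between *Insig* controls and *Scap* PN1 controls. The lines were not tested against one another, because line and age differ together.

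The spread over the 18 arrays was 0.72 (SD) for *Usp18*, 0.70 for *Ifit3*, 0.61 for *Ifit1*, 0.57 for *Irf7* and 0.55 for *Rsad2*, and 0.35, 0.24 and 0.22 for *Irf1*, *Ifit2* and *Stat2*. Between members the Pearson r over 18 arrays was 0.54 at the median of 28 pairs. It was highest for *Irf1* with *Usp18* (0.91) and for *Irf7* with *Ifit1* (0.89), and lowest for *Stat2* with *Ifit3* (-0.40). Within groups, after the group means were taken off, the median was 0.52, and without KO17 and KO18 it was 0.48. These arrays share lungs, groups and the compression of KO17 and KO18, so the values are descriptions.

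Probe sets were ranked by r with the mean of the members over the 18 arrays, among 16456 with 1 symbol that passed the filter. The first were *Smpdl3a* (0.974), which encodes a phosphodiesterase of nucleotides, and *Trim30a* (0.97), an interferon-induced member of the TRIM family. *Tmem140* (0.958), *Gucy1b1* (0.956), *Cnr2* (0.956), *Birc3* (0.951), *Slc31a2* (0.95), *Map1lc3b* (0.948 and 0.947 by 2 probe sets) and the nuclear body gene *Sp100* (0.947) followed. The 95th percentile of r over the ranked probe sets was 0.81. Within groups the list was *Slc48a1* (0.969), *Lamp1* (0.961), *Trim30a* (0.959), *Gucy1b1* (0.957), *Ptafr* (0.956), *Nbl1* (0.954), *Sp100* (0.954), *Grap* (0.949), *Tmem176a* (0.946) and *Smpdl3a* (0.946), and both lists hold 4 probe sets in common.

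The rest of the pathway was read from fixed lists. Of 20 interferon genes 15 had a probe set, and 8 of these stayed under the 35th percentile of every array. *Ifnb1* read 5.54 to 5.95 over all arrays. In *Scap* Δ/Δ lungs from E18.5 to PN1 *Ifna5* (0.73, adjusted p = 0.0227 from limma), *Ifna14* (0.50, adjusted p = 0.0423) and *Ifnl2* (0.39, adjusted p = 0.0392) rose, where 17.5% of all probe sets tested rose. KO17 and KO18 were above KO16 in each: *Ifna5* read 8.43, 9.43 and 9.22 in KO16, KO17 and KO18 and *Ifnl2* 8.82, 9.33 and 9.34. None of the interferon genes passed with KO16 as the only PN1 array (n = 1). The effect of the deletion at E18.5 had a median of -0.09 over the 15, with *Ifna5* (-0.27) and *Ifng* (-0.20) lower without overlap, as were 21% of all probe sets tested. At PN1 the effect had a median of 0.10, with 14 of 15 above 0 and none called. The mean of the 15 was 6.36 in PN1 controls. Between 6 and 7 the median of all probe sets stood at 0.17 in KO17 and 0.19 in KO18 relative to these controls. With KO16 as the only *Scap* Δ/Δ array of PN1 (n = 1) the median of the 15 was -0.09.

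Receptors and kinases varied less. Over 9 genes the median was -0.03 at E18.5, -0.16 at PN1 and -0.04 in the *Insig* line, and none was called. At PN1 *Ifnar2*, a chain of the type I receptor, was at -0.47 and *Ifngr2*, of the interferon-gamma receptor, at -0.25, both without overlap. Of the 9 genes 3 were lower without overlap, against 11% of probe sets tested. The mean of the 9 was 10.38 in PN1 controls. The median of all probe sets stood at -0.37 in KO17 and -0.39 in KO18 between 10 and 11, and at -0.33 and -0.36 between 11 and 12. In *Scap* Δ/Δ lungs from E18.5 to PN1 3 of 9 fell, *Il10rb* (-0.62), *Ifnar2* (-0.54) and *Ifngr1* (-0.44). In that comparison 20.1% of all probe sets tested fell. Among 5 further STAT and IRF factors, *Irf9*, the partner of STAT2 on the ISRE, fell by 1.02 (adjusted p = 0.00338 from limma) and *Irf2* by 0.43 over the same interval. *Irf9* read 9.87, 9.93 and 10.09 at E18.5 and 9.31, 8.75 and 8.77 at PN1, so that KO16 was below every E18.5 array as well. Of 14 sensors and adaptors tested, 6 fell in that comparison, among them the adaptor *Mavs* (-0.81) and the RNA sensor *Rigi* (-0.49). With KO16 as the only PN1 array (n = 1) *Irf9* was at -0.65 (adjusted p = 0.0378 from limma), and *Irf2*, the receptors and the sensors did not pass.

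Other antiviral effectors were the largest list. Of 37 with a probe set, 25 were above 0 at E18.5 in *Scap* Δ/Δ against control lungs (median 0.07), with *Phf11d* (0.57), *Sp100* (0.54) and *Trim30a* (0.41) highest among those without overlap, and 0 were called. At PN1 29 of 37 were below 0 (median -0.21), with *Rtp4*, *Isg20* and *Oasl2* at -1.03, -0.77 and -0.70 and 0 called. In *Insig1/2* Δ/Δ lungs 30 of 37 were above 0 (median 0.15), none without overlap. From E18.5 to PN1 in *Scap* Δ/Δ lungs 19 of the 32 tested fell and 0 rose, where 20.1% of all probe sets tested fell and 17.5% rose. *Rtp4* fell most (-2.28, adjusted p = 0.00182 from limma), from 9.89, 9.84 and 10.42 to 8.48, 7.17 and 7.65, followed by *Ifi203* (-1.64), *Sp100* (-1.41) and *Trim30a* (-1.41). When KO16 was the only PN1 array (n = 1) 6 of 32 passed, all lower, with *Rtp4* at -1.56 (adjusted p = 0.0131 from limma), *Oasl2* at -1.20 and *Sp100* at -0.95, where 6.2% of all probe sets were called in either direction. In controls 1 of 32 fell over that interval, *Oas1b* (-0.47, adjusted p = 0.0387 from limma), where 1.39% of all probe sets tested fell. *Rtp4* (-0.87), *Ifi203* (-0.77), *Oasl2* (-0.68) and *Samd9l* (-0.26) were lower there without a call. Of the 37, 25 were below 0 and 12 above.

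Interferon-gamma induced GTPases, which attack the vacuoles of intracellular pathogens, had 5 measured genes. In controls *Iigp1* fell from E18.5 to PN1 by 0.85 (adjusted p = 0.0443 from limma), and in *Scap* Δ/Δ lungs all 4 tested genes fell, *Iigp1* (-1.69), *Gbp7* (-1.52), *Irgm1* (-1.02) and *Gbp3* (-0.79). Of 15 antigen presentation genes 6 fell and 1, the class I transactivator *Nlrc5* (0.75), rose over that interval. The proteasome subunits *Psmb8* (-0.82) and *Psmb10* (-0.81) were among the 6. Of 4 ISG15 conjugation enzymes 2 fell, *Ube2l6* (-0.94) among them. Of all probe sets tested, 20.1% fell and 17.5% rose over that interval. With KO16 as the only PN1 array (n = 1) *Iigp1* (-1.24), *Gbp7* (-1.13) and *Gbp3* (-0.82) passed, and no gene of antigen presentation or ISG15 conjugation did. None of 4 chemokines and none of 5 negative regulators was called in any of the 6 comparisons, but without KO17 and KO18 the inhibitor of cytokine receptors *Socs3* rose from E18.5 to PN1 by 0.52 in controls, and KO16 alone (n = 1) differed by 0.64 from *Scap* Δ/Δ lungs of E18.5. Across these lists 0 genes were called for the deletion of *Scap* at either age, for the interaction or for the deletion of *Insig1*.

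Other cells were checked by their markers. Lung epithelial, endothelial and fibroblast markers were high on every array, with means of 11.28 to 11.71, 11.62 to 12 and 10.49 to 11.20. T and NK cell markers lay under the 35th percentile of every array for 5 of 8 genes and thymus markers for 5 of 6. Plasmacytoid dendritic cells are the main makers of type I interferon. Their 4 markers had means of 6.53 to 6.80. At E18.5 in *Scap* Δ/Δ lungs *Siglech* was lower by 0.28 without overlap, as were 21% of all probe sets tested. Heart markers had means of 9.73 to 10.70 except in C21, an *Insig* control, where they were higher.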

How the data were processed

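RNA of whole lung was hybridised to Affymetrix Mouse Gene 1.0 ST arrays with 3 biological replicates per condition, per the study's methods. The authors deposited 1 log2 value for each probe set and array, and their own tests were run in GeneSpring GX. How the log2 values were summarized and normalized, and any batch, is not given in the sources used here. Arrays have no depth, and their number limits the precision. Symbols came from the platform annotation, in which 21789 probe sets have 1 symbol, 1621 several and 12146 none.

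A probe set was tested if it reached the 35th percentile of the array on 66% or more of the arrays fitted. Group means were compared with limma 3.58.1 (R 4.3.3), once for the 12 *Scap* and once for the 6 *Insig* arrays. Adjustment followed Benjamini and Hochberg over every tested probe set, and a call is an adjusted p under 0.05. The fit was tested on simulated data with independent noise, which held no shift of whole arrays like that of KO17 and KO18. Differences of members are between group means, filtered or not. Tables and figures were made in Python 3.11.15.

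The members, pathway lists and markers were chosen with earlier results of these data known. Named were all members, up to 4 called genes of each list (if none was called, up to 3 without overlap) and the 10 probe sets most like the members; other genes named, such as *Ifnb1*, *Ccr2* and *S100a8*, were chosen after their values were seen. A gene with several probe sets was represented by the highest. Alternatives changed the filter, scaling, arrays, trend, moderation and array weights, and left out each array.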

Additional observations from a re-analysis of the deposited data

How the results depend on the processing

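The median of the 8 members kept its sign in all 6 comparisons under every alternative, but its size changed with array weights in 4 of them and without KO17 and KO18 in 2 of them. With array weights the median was -0.90 for *Scap* deletion at PN1, -1.38 for the interaction, -1.10 for PN1 minus E18.5 in *Scap* Δ/Δ lungs and 0.71 in the *Insig* line, and the members called were 2 at E18.5, 7 at PN1, 7 for the interaction, 5 in the *Insig* line and 2 for age in controls. Array weights called 12.5% of all probe sets for age in controls. With all 18 arrays in 1 fit 3 members were called at PN1 and 1 for age in controls. That fit called 13.2% and 3.79% of all probe sets in these comparisons. On the 6 arrays of a comparison alone 2 were called for age in controls and 0 for age in *Scap* Δ/Δ lungs. There 11.1% and 0.281% of all probe sets were called. Without KO17 and KO18, which leaves 1 *Scap* Δ/Δ array at PN1, the median was -0.13 at PN1 and -0.44 for the interaction, and 2 members were called for age in controls and 2 for age in *Scap* Δ/Δ lungs. The cause of these changes was not tested. Calls over all probe sets moved likewise, from 2 to 15526 with array weights at PN1, from 0 to 8366 in the *Insig* line and from 8581 to 64 on the 6 arrays alone for age in *Scap* Δ/Δ lungs.

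Leaving out each array in turn, the median ranged from 0.19 to 0.28 at E18.5, -0.82 to -0.46 at PN1, 0.13 to 0.50 in the *Insig* line, -0.23 to -0.05 for age in controls, -1.07 to -0.68 for age in *Scap* Δ/Δ lungs and -1.14 to -0.76 for the interaction. The members called ranged from 0 to 1, 0 to 6, 0 to 0, 0 to 3, 3 to 8 and 0 to 7 in that order, and the highest count of each *Scap* comparison came without KO16. For age in *Scap* Δ/Δ lungs *Ifit2* lost its call without any 1 array other than KO16, without the filter (adjusted p = 0.0529 in limma) and without moderation (0.0716). *Stat2* lost it without KO10, KO11, KO12 or KO17 and after quantile normalization (0.0585), and *Usp18* without KO12, KO17 or KO18. Without 1 array other than KO16, between 7.56% (KO17 left out) and 32.2% (C13 left out) of all probe sets were called in this comparison, against 37.6% with every array. Over all probe sets the median at PN1 was 0.03 as deposited, -0.09 after quantile normalization and -0.11 after median centring, and the members' direction was the same. No paired analysis was possible, because the sample labels do not tell which lungs came from the same litter.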
